A study of Drosophila melanogaster with 15 samples.

Results

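Astrocytes sorted from fly brains 24 hr after traumatic brain injury (TBI) were compared with astrocytes sorted 4 hr after TBI, to see how the transcriptome moved between an early and a later time after the same injury. The comparison rests on 10 of the 15 samples of the series, 5 at 24 hr and 5 at 4 hr, and on the 7810 of 17509 listed genes that had a level of 1 TPM or more in at least 5 of these 10 samples. TPM is a transcript level per gene length that sums to an equal total in each sample, so it gives shares and no read depth. All flies were *Drosophila melanogaster* labelled as wild type that carried *R86E01-Gal4* and *UAS-Redstinger*, so that a red nuclear protein marked the cells in which this astrocyte driver is active. Flies were injured 3 days after eclosion with a HIT device, a spring that strikes the vial against a pad, and their brains were dissected 24 hr or 4 hr later. The paper used repeated strikes and reports that most flies died within 24 hr of this number of strikes. Survival to 24 hr and the time after injury therefore cannot be told apart. About 50 brains per group were pooled and dissociated, and 1600 red cells per sample were sorted into lysis buffer for Smart-seq2, which primes cDNA on the poly(A) tail. The 5 samples of uninjured flies of the same genotype are given beside some results as levels, with no test. The sorted cells are those in which the driver is on at dissection, and the labels give neither the sex of the flies nor the hour of day of dissection.

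Fly astrocytes infiltrate the neuropil, where they take up the transmitters glutamate and GABA. The transcription factor AP-1, a dimer of Jra (fly Jun) and kay (fly Fos), acts downstream of the kinase JNK and is known to switch on genes of wound healing, among them the secreted protease gene *Mmp1*. Remodelling of the actin cytoskeleton is a further part of the response of glia and epithelia to wounds. The endosomal ESCRT machinery sorts receptors, and the study names several of its genes from its RNA-seq data. After TBI, the paper found no significant difference in Mmp1 or an AP-1 reporter with *Stam*, *Chmp1* or *Vps24* knocked down in astrocytes.

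The astrocyte markers were abundant at both times. *alrm*, an astrocyte marker that encodes a leucine-rich repeat protein, had 22515, 21668, 28298, 21526 and 21462 TPM at 24 hr, against 21999, 22519, 18306, 18018 and 17948 TPM at 4 hr. *Eaat1*, the glutamate transporter, had 5957, 6178, 6093, 5787 and 5252 TPM at 24 hr, against 6810, 6931, 6991, 6040 and 6098 TPM at 4 hr. The ranges of *alrm* overlapped between the times and those of *Eaat1* met between 6040 and 6178 TPM, with a log2 fold change of 0.22 for *alrm* (limma adjusted p = 0.54) and -0.17 for *Eaat1* (limma adjusted p = 0.57). The neuronal gene *nSyb* had 59.2, 12.1, 10.0, 6.59 and 10.6 TPM at 24 hr, against 21.1, 18.6, 14.2, 7.12 and 3.80 TPM at 4 hr. A single sample, 24 hr replicate 1, held the highest *nSyb* value, and the log2 fold change of 0.31 did not pass the test (limma adjusted p = 0.79). Of the other astrocyte genes, *Gat*, the GABA transporter gene, *Gs2* (glutamine synthetase), *e*, *wun2*, *Obp44a* and *htl*, an FGF receptor gene, none was called, and their log2 fold changes ran from -0.05 for *wun2* to 0.76 for *htl*. The summed TPM of the 8 astrocyte markers was 62326 to 84423 at 24 hr, against 53867 to 75122 at 4 hr. Markers of cells other than glia were low, with 36.7 to 213 TPM summed over 13 neuronal genes at 24 hr against 43.5 to 101 TPM at 4 hr. The 10 muscle markers summed to 0.53 to 3.66 TPM at 24 hr, against 0.61 to 5.55 TPM at 4 hr, and *Act57B* was listed at 0 in all 10 samples. The 7 hemocyte markers summed to 109 to 172 TPM at 24 hr, against 112 to 222 TPM at 4 hr, nearly all of it from *crq*, and *He* was listed at 0 in all 10. Photoreceptor markers summed to 27.1 to 54.8 TPM at 24 hr, against 36.3 to 69.4 TPM at 4 hr, with *ninaC* and *Rh6* listed at 0. Markers of cortex and ensheathing glia reached higher sums. The 4 cortex glia genes summed to 837 to 2866 TPM at 24 hr, against 434 to 2095 TPM at 4 hr. The 2 ensheathing glia genes summed to 313 to 696 TPM at 24 hr, against 141 to 505 TPM at 4 hr. All of these glial genes had a log2 fold change above 0, beside a median of 0.18 over all genes tested, and none was called. The part of other glia in the results was not tested.

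The samples differed more within a time than between times. In a principal component analysis of log2(TPM + 1), 23.9% of the variance of the 10 samples lay between the times. The first component (45.4% of the variance) ran from replicates 1 and 2 to replicates 4 and 5 within each time, while the second (18.1%) separated the times, with all samples at 24 hr between 3.90 and 38.7 and all samples at 4 hr between -31.78 and -9.43. The share of TPM from the mitochondrial genome was highest in replicates 4 and 5 of both times. It was 15.7%, 15.2%, 19.6%, 37.2% and 33.4% in replicates 1 to 5 at 24 hr, against 17.2%, 11.5%, 26.9%, 43.2% and 36.3% at 4 hr. The means of 24.2% ± 10.3 at 24 hr and 27.01% ± 13.1 at 4 hr (SD, n = 5 each) did not differ beyond their spread (exact two-sided permutation p = 0.698). Genes with any TPM above 0 numbered 9519 ± 373 at 24 hr and 9493 ± 351 at 4 hr (SD, n = 5 each; exact two-sided permutation p = 0.905). Uninjured astrocytes had a mitochondrial share of 43.1% ± 6.89 and 8592 ± 124 such genes (SD, n = 5). Each gene was also fitted within the 6 samples with a mitochondrial share under 30% and within the 4 samples above it.

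**Figure D1:**
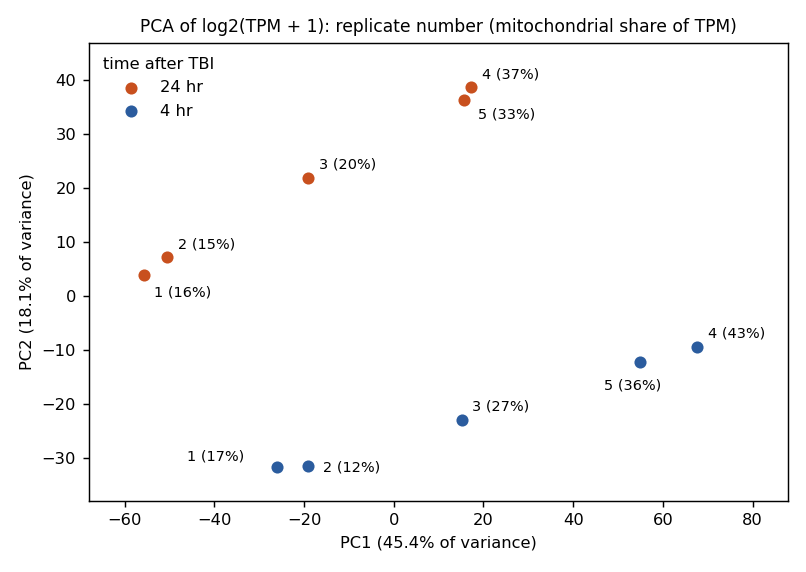
Each point is a sample, placed by its scores on the first (horizontal axis) and second (vertical axis) principal component of log2(TPM + 1), with its replicate number and its mitochondrial share of TPM in percent. The samples at 24 hr (orange) lie above the 5 at 4 hr (blue) along the second component, and in both colours replicates 1 and 2 lie to the left of replicates 4 and 5.

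In the fit of the 10 samples without a covariate, falls outnumbered rises. A gene was called when limma on log2(TPM + 1) gave a Benjamini–Hochberg adjusted p below 0.01 over all 7810 genes and a log2 fold change of 1 or more in either direction. By this rule 29 genes (0.371%) were higher and 115 (1.47%) were lower at 24 hr than at 4 hr, so that 79.9% of the 144 called genes were lower. The falls were also deeper, down to a log2 fold change of -4.58 against a largest rise of 2.81. The reverse held under a looser rule with no limit on the fold change. Of the 1572 genes with an unadjusted limma p below 0.05, the called genes included, 968 were higher and 604 lower. Over all genes the log2 fold change had a median of 0.18, which was 0.05 with median-of-ratios size factors and 0.03 after quantile normalization. In 276 genes (3.53%) all samples at 24 hr lay above all samples at 4 hr, and in 291 (3.73%) all lay below. TPM is a share of the transcripts of a sample, so a lower level in each astrocyte and fewer cells that make the transcript cannot be told apart.

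Which samples entered the fit moved these counts. Leaving out 1 sample at a time gave between 10 and 29 higher genes, with 14, 17, 10, 14 and 12 without 24 hr replicates 1 to 5, and with 12, 16 and 16 without 4 hr replicates 3, 4 and 5. It gave between 67 and 102 lower genes, with 71 without 4 hr replicate 2 and 67 without 4 hr replicate 3. Of the called genes, 8 of the 29 higher and 63 of the 115 lower were called in all 10 of these fits. The TPM filter was applied anew in each fit. Therefore 4 called genes were not tested in any fit without a 24 hr sample, and 9 in any fit without a 4 hr sample. Such genes could not be called in all 10. The mitochondrial share as a covariate gave 154 higher and 220 lower genes, which lowered the share of lower genes to 58.8%. Within the samples with a mitochondrial share under 30% (3 against 3), 10 genes were higher and 98 lower, and within those over 30% (2 against 2), 9 were higher and 22 lower. All of the 144 called genes kept their direction within both sets of samples. In all but 1 of these genes the times did not overlap, so their direction within any set of these samples was fixed in advance.

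**Figure D2:**
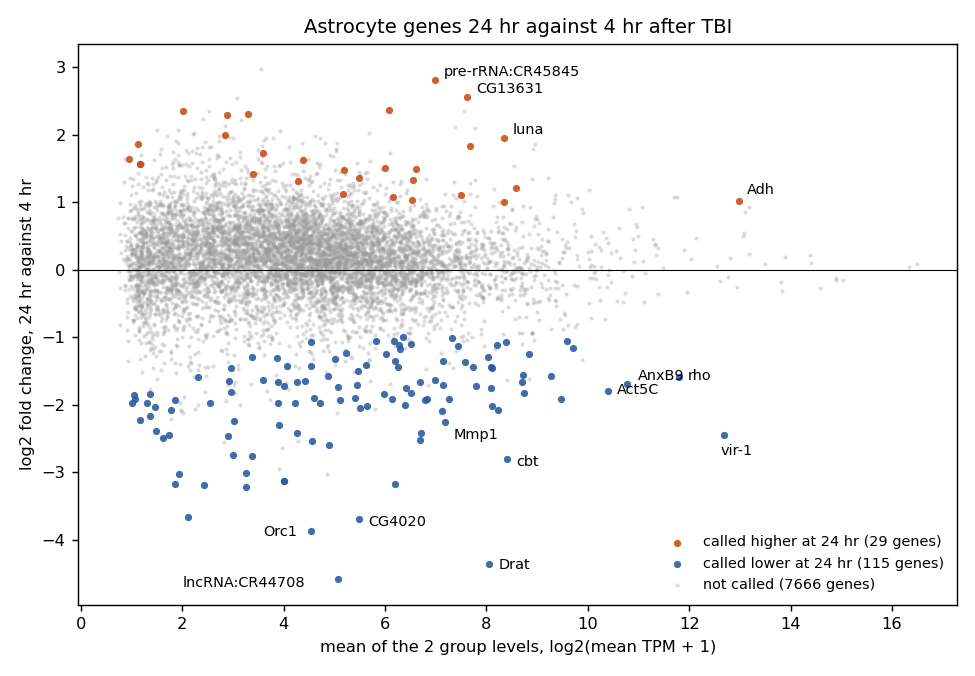
Each point is 1 of the 7810 genes, with its level (horizontal axis, mean over both times of log2(mean TPM + 1)) against its log2 fold change of 24 hr over 4 hr (vertical axis). The 29 called rises (orange) end at 2.81, while the 115 called falls (blue) reach -4.58 and include abundant genes such as *vir-1* and *rho*.

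*Drat* and *cbt* fell far from a high level at 4 hr. Coordinates here and below are those of the release 6 assembly (dm6). *Drat* (FBgn0033188, chromosome 2R from 7526118 to 7532981), which encodes a protein with an alcohol dehydrogenase domain, had 70.4, 88, 63, 32.3 and 31.8 TPM at 24 hr, against 1756, 1764, 1281, 509 and 779 TPM at 4 hr. Every sample at 24 hr lay far below the lowest at 4 hr, although the 4 hr samples themselves were spread from 509 to 1764 TPM. The log2 fold change was -4.35 (limma standard error 0.39, adjusted p = 3.6e-05), with -4.42 in the samples with a low mitochondrial share and -4.25 in the others. Uninjured astrocytes had 10.4 ± 2.65 TPM (SD, n = 5) of *Drat*. *Orc1*, a subunit of the origin recognition complex of DNA replication, had 7.78, 9.20, 5.97, 1.31 and 2.85 TPM at 24 hr, against 71, 107, 91.4, 82.7 and 60.0 TPM at 4 hr (log2 fold change -3.87, standard error 0.38, adjusted p = 8.4e-05). It starts 401 bases beyond the end of *Drat* on the same strand. Of the 20 tested genes of the replication and cell cycle list it was the only one called, beside 1.47% of all genes called lower. *cbt* (FBgn0043364, chromosome 2L from 476446 to 479688), a zinc finger transcription factor, had 113, 109, 147, 129 and 137 TPM at 24 hr, against 715, 949, 846, 1108 and 859.6 TPM at 4 hr. No sample at 24 hr came near the lowest at 4 hr and the replicates of each time varied little, with a log2 fold change of -2.81 (limma standard error 0.16, adjusted p = 1.5e-06). Uninjured astrocytes had 96.3 ± 16.6 TPM (SD, n = 5).

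Several of the other deep falls were in genes that were near 0 at 24 hr. *FarO*, a fatty acyl-CoA reductase, had 1.02, 0.12, 0, 0 and 0 TPM at 24 hr, against 13.6, 19.2, 15.9, 16.5 and 7.28 TPM at 4 hr (log2 fold change -3.66, standard error 0.33, adjusted p = 3.8e-05), and it was listed at 0 in all 5 uninjured samples. *CG4020*, of the same enzyme family, had 10.2, 10.8, 13.4, 8.75 and 14.6 TPM at 24 hr, against 149.8, 199, 178, 131 and 144 TPM at 4 hr (log2 fold change -3.69, standard error 0.2, adjusted p = 1.5e-06). Its start lies 346 bases past the end of *Act5C* on the same strand, a gene that also fell. *lncRNA:CR44708*, the largest fall of all, had 0, 4.49, 9.38, 6.99 and 13.9 TPM at 24 hr, against 139, 168, 122, 131 and 138 TPM at 4 hr (log2 fold change -4.58, standard error 0.57, adjusted p = 0.00054). *Gr63a*, known as a subunit of the carbon dioxide receptor of the antenna, had 0 to 2.0 TPM at 24 hr, against 5.95 to 22.8 TPM at 4 hr (log2 fold change -3.19, standard error 0.4, adjusted p = 0.00051). *dmrt93B*, a transcription factor gene with a DM domain, had 1.81 to 4.19 TPM at 24 hr, against 16.9 to 31.1 TPM at 4 hr (log2 fold change -2.76, standard error 0.27, adjusted p = 8.1e-05). *Dtd*, which encodes a deacylase of mischarged tRNA, had 0 to 5.75 TPM at 24 hr, against 18.9 to 35 TPM at 4 hr (log2 fold change -3.22, standard error 0.46, adjusted p = 0.0014). *CG3348*, *CG14628* and *CG15414* fell by 3.18, 3.18 and 3.03 on the log2 scale (adjusted p = 0.00011, 0.00077 and 0.0003). *CG14628* stayed below 1 TPM in every sample at 24 hr. It could pass the filter only through the 4 hr samples, so its direction was fixed in advance. *SuUR*, known for slowing replication of heterochromatin, and *CG45101* share all of their exons and carry the same values, 2.84 to 7.32 TPM at 24 hr, against 36.4 to 58.4 TPM at 4 hr, so which of the 2 fell (log2 fold change -3.12, standard error 0.26, adjusted p = 2.3e-05) cannot be told from these data. *fan* fell by 3.00 on the log2 scale (adjusted p = 0.0067), and it was called in 1 of the 10 fits that left out 1 sample, with an adjusted p of up to 0.025 without 4 hr replicate 3.

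The gene of the virus-induced RNA *vir-1* stood out for its abundance. It had 2424, 2505, 3097, 2823 and 3204 TPM at 24 hr, against 12570, 14426, 14359, 16291 and 19564 TPM at 4 hr, more than any other called gene at 4 hr, and the log2 fold change was -2.45 (limma standard error 0.18, adjusted p = 1.2e-05). Uninjured astrocytes had 2529 ± 436 TPM (SD, n = 5), and all 5 samples at 24 hr lay within the range of the uninjured samples, 1990 to 3207 TPM. *rho*, which encodes the protease rhomboid that releases EGF receptor ligands, had 2058 ± 253 TPM at 24 hr, against 6138 ± 494 TPM at 4 hr (SD, n = 5 each) (log2 fold change -1.58, standard error 0.15, adjusted p = 8.1e-05). Neither gene was chosen by the rule for named genes. Both were picked after their values were seen, for their level.

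The called JNK and AP-1 genes lay at the downstream end of the pathway. Their list was written with earlier results of these data known, and the study had named *Jra*, *kay* and *Mmp1* of it from these samples. Of the 16 tested members of this list, 4 were called lower and 0 higher, beside 1.47% and 0.371% of all genes, and the median log2 fold change of the list was 0.05 against 0.18 for all genes. The 4 called genes were the downstream members *Jra*, *Ets21C*, *Mmp1* and *Atf3*. *Mmp1* (FBgn0035049, chromosome 2R from 24671294 to 24688184), the matrix metalloproteinase gene, had 77.7, 79.1, 62.7, 48 and 53.5 TPM at 24 hr, against 443, 418, 293, 219 and 222 TPM at 4 hr. All 5 samples at 24 hr lay below all samples at 4 hr, and the log2 fold change was -2.26 (limma standard error 0.24, adjusted p = 0.00018). Uninjured astrocytes had 9.73 ± 7.40 TPM (SD, n = 5) of *Mmp1*, below every sample at 24 hr. The 6 other tested matrix genes, among them *Mmp2* and the collagen genes *Col4a1* and *vkg*, were not called. *Jra* (FBgn0001291, chromosome 2R from 10096480 to 10098556) had 171, 174, 185, 168 and 126 TPM at 24 hr, against 479, 513, 453, 423 and 369 TPM at 4 hr. The groups did not overlap, the spread within each time was small, and the log2 fold change was -1.44 (limma standard error 0.16, adjusted p = 0.0002), with -1.44 and -1.44 in the samples under and over 30% mitochondrial share. Uninjured astrocytes had 98.5 ± 11.8 TPM (SD, n = 5).

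Its partner was more variable. *kay* (FBgn0001297, chromosome 3R from 29765995 to 29794113) had 298, 246, 165, 93.5 and 124 TPM at 24 hr, against 908, 982, 619.6, 213 and 348 TPM at 4 hr. Replicates 1 and 2 were high and replicates 4 and 5 low at both times, so that the groups overlapped, and the log2 fold change of -1.63 missed the threshold (limma standard error 0.44, adjusted p = 0.051). Within the samples with a low mitochondrial share it was -1.83, and within the others -1.33. The fall of *kay* passed the threshold within the samples of low mitochondrial share, with size factors, with the mitochondrial genome removed, with its share as a covariate and with sample weights. *Atf3*, which encodes a bZIP partner of Jra, had 11.6 to 21 TPM at 24 hr, against 32 to 67.9 TPM at 4 hr (log2 fold change -1.57, standard error 0.25, adjusted p = 0.0029), and its adjusted p was up to 0.013 without 4 hr replicate 3. *Ets21C*, an ETS-domain factor that acts with AP-1, had 11, 2.48, 5.33, 4.17 and 4.87 TPM at 24 hr, against 51, 43.1, 40.0, 11 and 19.9 TPM at 4 hr. Its groups touched at 11.03 TPM, the only called gene whose groups were not fully apart, and it was called in 2 of 10 fits that left out 1 sample (log2 fold change -2.3, standard error 0.44, adjusted p = 0.0099, up to 0.036 without 4 hr replicate 3). *puc*, the JNK phosphatase gene that AP-1 switches on, had 63.8, 62.6, 56.2, 62.1 and 66.9 TPM at 24 hr, against 115, 100.4, 105, 103 and 74.7 TPM at 4 hr. All of its samples at 24 hr lay lower, but the log2 fold change of -0.66 did not reach the limits (limma adjusted p = 0.037).

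The kinases and receptors upstream of AP-1 showed no called difference. The ligand *egr* (fly TNF) had 13.1, 8.01, 14.6, 6.28 and 9.72 TPM at 24 hr, against 8.43, 7.06, 1.54, 0.24 and 5.0 TPM at 4 hr (log2 fold change 1.35, limma adjusted p = 0.17). For *bsk*, which encodes JNK itself, the values were 49.8, 42.7, 66, 66.6 and 64.6 TPM at 24 hr, against 49.4, 44.6, 43.1, 77.4 and 77.7 TPM at 4 hr, the log2 fold change being 0.02 (limma adjusted p = 0.97). The TNF receptor gene *wgn*, the adaptor gene *Traf6* and the kinase genes *Tak1*, *slpr*, *wnd*, *msn*, *hep* and *Mkk4* had log2 fold changes between -0.07 for *Mkk4* and 0.76 for *slpr*, with adjusted p of at least 0.19. The direction of *bsk*, *hep*, *Tak1*, *wgn* and *Mkk4* was not the same under every scaling or set of samples. *Pvr*, the PDGF and VEGF receptor gene, was low, with 0.67, 1.06, 0.48, 0.09 and 0.30 TPM at 24 hr, against 3.33, 2.25, 2.02, 0.62 and 2.90 TPM at 4 hr (log2 fold change -1.04, limma adjusted p = 0.1). Its ligand gene *Pvf3* had 0.30 to 4.50 TPM at 24 hr, against 0.35 to 2.28 TPM at 4 hr and was not called. *rl*, the MAP kinase gene, had 79.5 ± 17.8 TPM at 24 hr, against 74.8 ± 23.4 TPM at 4 hr (SD, n = 5 each) and *Cad96Ca*, a receptor kinase gene known from wound closure, 6.59 ± 2.59 TPM at 24 hr, against 8.09 ± 4.26 TPM at 4 hr (SD, n = 5 each), with log2 fold changes of 0.11 and -0.19 (adjusted p = 0.83 and 0.81).

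**Figure D3:**
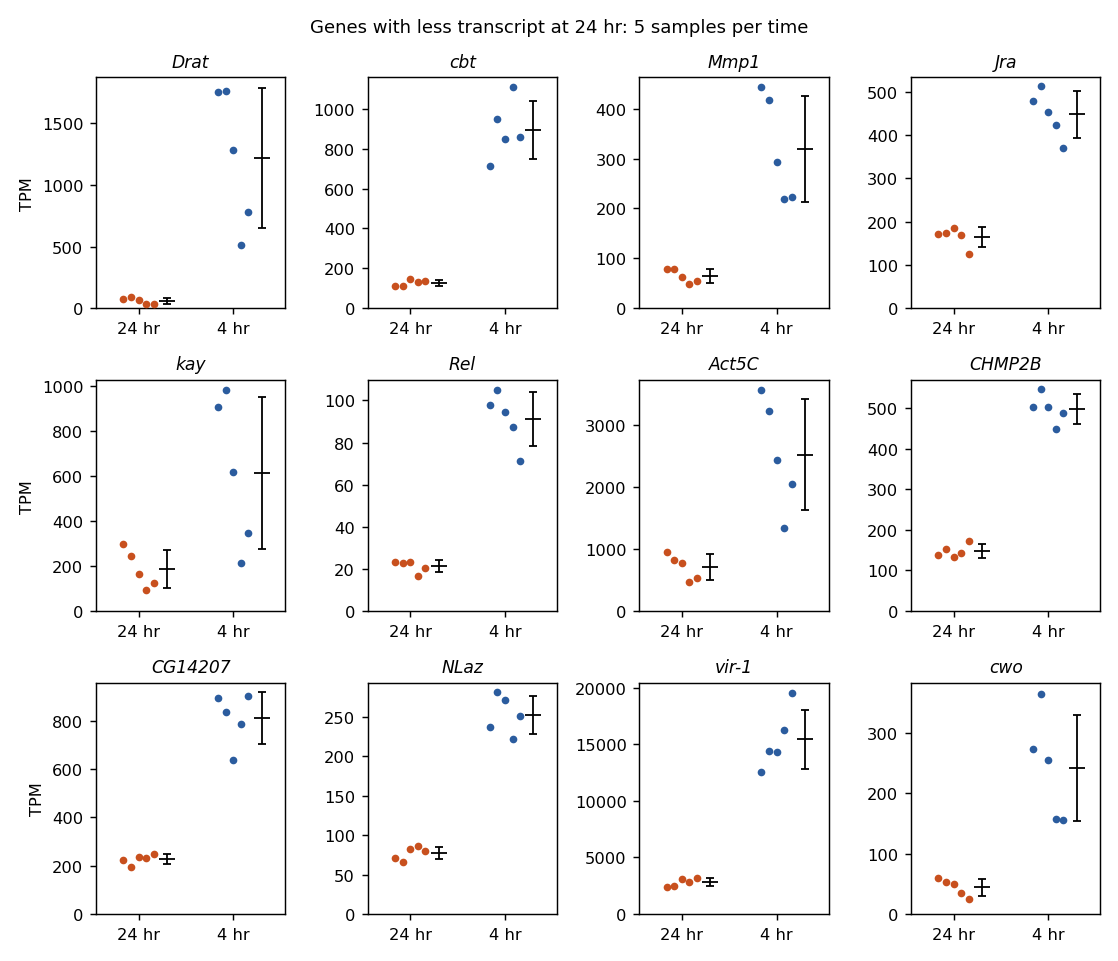
TPM (vertical axes, starting at 0) of 12 genes in the 5 samples at 24 hr (orange) and the 5 at 4 hr (blue), replicates 1 to 5 from left to right within a time, with the mean and SD in black. In every panel but *kay* the 24 hr points lie below all 4 hr points, and for *kay* the 213 TPM of 4 hr replicate 4 falls within the 24 hr range of 93.5 to 298 TPM.

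None of the 13 tested genes of the Draper engulfment pathway was called, beside 1.47% of all genes called lower and 0.371% called higher. Their median log2 fold change was 0.14. *drpr*, the engulfment receptor gene, had 158, 153, 105, 73.8 and 91.4 TPM at 24 hr, against 279, 255, 184, 169 and 169 TPM at 4 hr. All samples at 24 hr were lower, and the log2 fold change of -0.88 missed both limits (limma adjusted p = 0.061). *Rac2*, a small GTPase gene of the pathway, had 41.2 to 57.4 TPM at 24 hr, against 58.9 to 89.6 TPM at 4 hr without overlap (log2 fold change -0.63, limma adjusted p = 0.061). The adaptor and signalling genes *ced-6*, *Shark*, *Src42A*, *drk*, *Crk*, *mbc*, *Ced-12*, *Rac1*, *Stat92E* and the receptor gene *crq* lay between -0.23 for *crq* and 0.63 for *mbc* on the log2 scale, with adjusted p of at least 0.12. The sign of *drk*, *Src42A*, *Crk*, *Ced-12* and *Stat92E* depended on the scaling or the samples used.

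Of the NF-κB genes of innate immunity *Rel* and *Dif* were called lower at 24 hr, and *dl* was not called. The study had named *Rel* and *Dif* from these samples. *Rel* (FBgn0014018, chromosome 3R from 9044183 to 9047977), the factor of the Imd pathway, had 23.4, 22.8, 23.1, 16.7 and 20.6 TPM at 24 hr, against 97.8, 105, 94.5, 87.5 and 71.1 TPM at 4 hr. The groups lay far apart and were even within each time (log2 fold change -2.05, standard error 0.18, adjusted p = 3.5e-05), and uninjured astrocytes had 9.22 ± 4.85 TPM (SD, n = 5). *Dif* (FBgn0011274, chromosome 2L from 17413248 to 17433161), a factor of the Toll pathway, had 43, 40.4, 32.5, 18.8 and 27 TPM at 24 hr, against 119, 174, 126, 68.4 and 106 TPM at 4 hr. It was lower in 5 of 5 samples (log2 fold change -1.84, standard error 0.28, adjusted p = 0.0022), with an adjusted p of up to 0.011 without 4 hr replicate 3. *dl* (Dorsal), the other Toll factor, had 83.3, 98.3, 106, 41.4 and 72.9 TPM at 24 hr, against 182, 224, 160.1, 103 and 157 TPM at 4 hr. A single sample at 24 hr, replicate 3, lay above the lowest at 4 hr (log2 fold change -1.05, limma adjusted p = 0.046). Of the other 12 tested genes in each of the Imd and Toll lists, none was called. Beside these counts stand 1.47% of all genes called lower and 0.371% called higher. *PGRP-SA*, a pattern receptor gene upstream of Toll, had 23.6, 25.6, 5.46, 12.9 and 24.5 TPM at 24 hr, against 5.67, 14.5, 1.79, 10.6 and 0 TPM at 4 hr. Its levels at 24 hr overlapped those at 4 hr (log2 fold change 1.76, limma adjusted p = 0.18), and it was listed at 0 in all uninjured samples. Of the 15 antimicrobial peptide genes none passed the filter, and their summed level was 0.59 to 31.4 TPM at 24 hr, against 0.13 to 3.16 TPM at 4 hr. The highest sum was that of 24 hr replicate 5, the other 4 samples at 24 hr lay between 0.59 and 5.42 TPM, and *Mtk* alone reached 30.25 TPM in 1 sample. The phagocytosis gene *NimA* had 0.87 to 4.50 TPM at 24 hr, against 0.04 to 4.20 TPM at 4 hr, with no called difference.

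Among genes of actin dynamics the calls were all downward. Their list was written with earlier results of these data known, and the study had named *chic*, *cpa* and *cpb* of it from these samples. Of the 15 tested members 5 were called lower and 0 higher, beside 1.47% and 0.371% of all genes, 10 were lower without overlap (background 3.73%), and the median log2 fold change was -0.82. Their summed level was 2235 to 2915 TPM at 24 hr, against 5590 to 8266 TPM at 4 hr. *Act5C* (FBgn0000042, chromosome X from 5900861 to 5905399), a cytoplasmic actin gene, had 955, 833, 783, 463 and 541 TPM at 24 hr, against 3573, 3228, 2446, 1341 and 2050 TPM at 4 hr. Replicates 1 and 2 were the highest at both times, and all samples at 24 hr lay below all at 4 hr (log2 fold change -1.79, standard error 0.29, adjusted p = 0.0031). It was called in 6 of 10 fits that left out 1 sample, with an adjusted p of up to 0.013 without 4 hr replicate 3. *Fim*, which encodes the filament bundler fimbrin, had 172, 149, 133, 107 and 111 TPM at 24 hr, against 758, 653, 581, 366 and 441 TPM at 4 hr (log2 fold change -2.02, standard error 0.22, adjusted p = 0.0002). *sqh* and *Mlc-c*, the regulatory and essential light chain genes of non-muscle myosin, had log2 fold changes of -1.58 and -1.55 (adjusted p = 0.0002 and 0.00024). *sqh* had 357 ± 70.5 TPM at 24 hr, against 1057 ± 139 TPM at 4 hr (SD, n = 5 each), and *Mlc-c* had 246 ± 54.3 TPM at 24 hr, against 714 ± 69 TPM at 4 hr (SD, n = 5 each). *cib*, a thymosin gene, had 444 to 712 TPM at 24 hr, against 1103 to 1426 TPM at 4 hr (log2 fold change -1.16, standard error 0.17, adjusted p = 0.0017).

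Further actin genes were not called. *chic*, which encodes profilin, had 111, 97.2, 136, 140.5 and 210.1 TPM at 24 hr, against 236, 274, 276, 281 and 314 TPM at 4 hr. It was lower in 5 of 5 samples, with a log2 fold change of -1.03 and an adjusted p of 0.011. The capping protein genes *cpa* and *cpb* had log2 fold changes of -0.82 and -0.52, also without overlap (adjusted p = 0.025 and 0.16). *capt*, an actin monomer-binding gene, passed the fold limit but not that of the adjusted p (log2 fold change -1.15, limma adjusted p = 0.016). The 2 genes of the actin list with a log2 fold change above 0 were *Gel* (1.03) and *ssh* (0.79), which were not called. In the Arp2/3 complex, which nucleates branched filaments, no subunit was called. *Arpc2* had 95.2, 87.3, 107, 90.5 and 85.6 TPM at 24 hr, against 135, 140.2, 149, 149.5 and 195 TPM at 4 hr and did not overlap (log2 fold change -0.71, limma adjusted p = 0.019). *Arpc1* ran from 168 to 563 TPM at 24 hr, against 152 to 562 TPM at 4 hr, and did not pass the test (log2 fold change 0.24, limma adjusted p = 0.79). Of the 20 tested genes of the Arp2/3 and nucleator list only the formin gene *Frl* was called, with 13.2, 13.5, 11.1, 15.5 and 12.6 TPM at 24 hr, against 40.3, 40.0, 34.8, 43.9 and 27.3 TPM at 4 hr (log2 fold change -1.42, standard error 0.2, adjusted p = 0.0014). Among the 10 tested integrin and adhesion genes only *rhea*, which encodes talin, was called, with 53.6 to 62.4 TPM at 24 hr, against 88 to 133 TPM at 4 hr (log2 fold change -1.0, standard error 0.16, adjusted p = 0.0034). Both single calls stand beside 1.47% of all genes called lower. The fall of *rhea* sat at the fold limit and was called in 5 of 10 fits that left out 1 sample (adjusted p up to 0.017 without 4 hr replicate 3).

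The ESCRT genes, whose products sort ubiquitinated receptors into multivesicular bodies, were also called in 1 direction only. Their list was written with earlier results of these data known. The study had named *Stam*, *Chmp1* and *Vps24* of this list from these samples, so the counts are partly a restatement of that choice. Of 20 tested members 7 were called lower and 0 higher, 12 were lower without overlap, and the median log2 fold change was -0.93. Over all genes 1.47% were called lower and 3.73% lay lower without overlap. The summed level of the list was 2432 to 3184 TPM at 24 hr, against 4182 to 5955 TPM at 4 hr. The called genes were *Vps28* of ESCRT-I and *CHMP2B*, *Vps2*, *Vps20*, *Vps24*, *Vps60* and *Chmp1* of the filament-forming ESCRT-III group. *CHMP2B* (FBgn0035589, chromosome 3L from 5139619 to 5140473) had 137, 154, 133, 143 and 174 TPM at 24 hr, against 504, 548, 503, 448 and 489 TPM at 4 hr. The groups were even within a time and far apart (log2 fold change -1.75, standard error 0.14, adjusted p = 2.3e-05). *Chmp1*, the most abundant of them, had 498, 475, 617, 491 and 605 TPM at 24 hr, against 1101, 1140, 1080, 926 and 1334 TPM at 4 hr (log2 fold change -1.05, standard error 0.15, adjusted p = 0.0016). The log2 fold changes of *Vps28*, *Vps60*, *Vps24*, *Vps20* and *Vps2* were -1.35, -1.17, -1.11, -1.1 and -1.06 (adjusted p of 0.001 to 0.0058). *Vps60* was called in 1 of 10 fits that left out 1 sample, with an adjusted p of up to 0.022 without 4 hr replicate 3. Of the exonic bases of *Vps24*, 68.1% are shared with *MP1*, so its reads may belong to either gene.

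In the upstream complex no gene was called. The ESCRT-0 genes *Hrs* and *Stam* had log2 fold changes of 0.03 and -0.35 (adjusted p = 0.96 and 0.59). *Hrs* had 441, 479, 374, 299 and 299 TPM at 24 hr, against 518, 579.9, 448, 202 and 235 TPM at 4 hr, with replicates 1 and 2 high and replicates 4 and 5 low at both times. *shrb*, the core ESCRT-III gene, had 239.8, 269, 356, 284 and 359.9 TPM at 24 hr, against 606, 616, 493, 577 and 569.8 TPM at 4 hr and missed the fold limit (log2 fold change -0.94, limma adjusted p = 0.0047). *Vps4*, the ATPase gene that disassembles the filaments, had 35.8 to 96.2 TPM at 24 hr, against 35.1 to 137 TPM at 4 hr (log2 fold change -0.31, limma adjusted p = 0.71). The difference between the complexes was not tested.

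**Figure D4:**
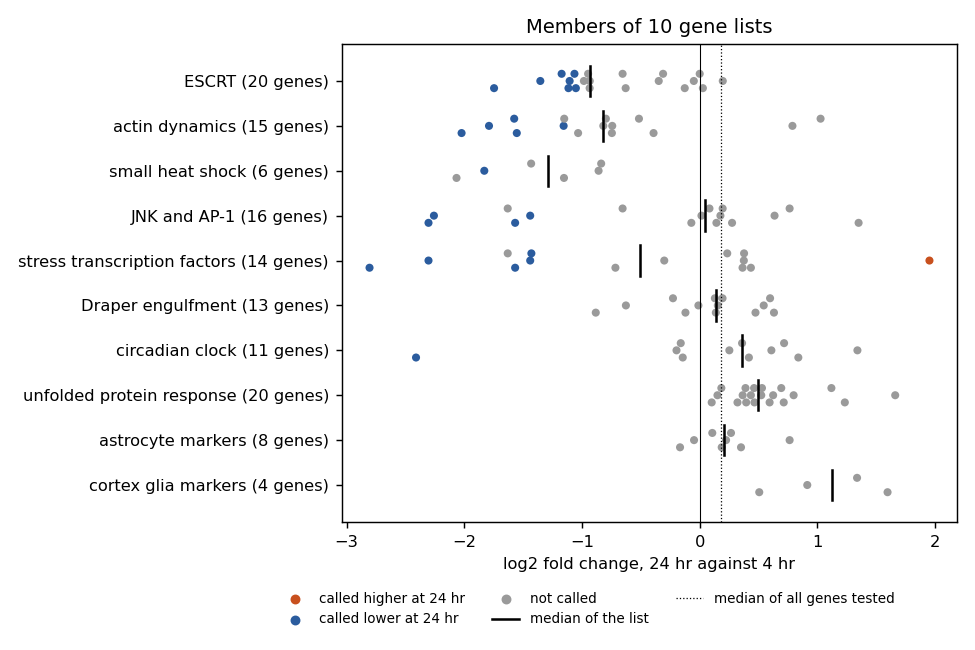
Log2 fold change of 24 hr over 4 hr (horizontal axis) of every tested member of 10 gene lists, each point a gene (orange called higher, blue called lower, grey not called), with the list median as a bar and the median of all genes, 0.18, as a dotted line. The medians of the ESCRT (-0.93) and actin (-0.82) lists lie below 0, and those of the unfolded protein response (0.49) and cortex glia (1.13) lists above it, without a called member.

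Among chaperones the small heat shock genes were the ones with a called member. All 6 tested had a log2 fold change below 0, with a median of -1.29, and 1 was called, beside 1.47% of all genes called lower. This was *CG14207* (FBgn0031037, chromosome X from 19605199 to 19611413), related to mammalian HSPB8, with 222, 193, 235, 233 and 249 TPM at 24 hr, against 893, 836, 637, 784 and 901 TPM at 4 hr. It did not overlap between the times (log2 fold change -1.83, standard error 0.15, adjusted p = 2.3e-05), and uninjured astrocytes had 59.5 ± 38.4 TPM (SD, n = 5). *Hsp23* had 76.1, 3.03, 35.3, 31.8 and 9.87 TPM at 24 hr, against 50.1, 107, 63.5, 168 and 85.4 TPM at 4 hr, a wide spread at both times that left its log2 fold change of -2.07 without a call (limma adjusted p = 0.1). The 19 tested genes of the Hsp70 and Hsp90 list had a median log2 fold change of -0.06, and the 8 genes of the CCT chaperonin one of -0.43, with no call in either. In the unfolded protein response of the endoplasmic reticulum all 20 genes had a log2 fold change above 0, from 0.10 for *Atf6* to 1.66 for *Edem1*, with no call. Their median was 0.49, beside 0.18 over all genes tested, most of which also lay above 0. *CaBP1*, a disulfide isomerase gene of this list, had 95, 94.2, 77.2, 66.3 and 58.8 TPM at 24 hr, against 70.9, 35.4, 31.4, 18.8 and 22.9 TPM at 4 hr (log2 fold change 1.23, limma adjusted p = 0.043). *CrebA*, which encodes a factor for secretory genes, was lower, with 5.78 to 12.6 TPM at 24 hr, against 21.3 to 30.9 TPM at 4 hr (log2 fold change -1.43, standard error 0.25, adjusted p = 0.0063), but it was called in only 1 of 10 fits that left out 1 sample (adjusted p up to 0.026 without 4 hr replicate 3).

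Of the 14 transcription factor genes of the stress list, which includes the AP-1 genes above, 5 were called lower (*cbt*, *Ets21C*, *Atf3*, *Jra* and *CrebA*) and 1 higher, beside 1.47% and 0.371% of all genes. The riser was *luna* (FBgn0040765, chromosome 2R from 10977956 to 11116378), of the Krüppel-like factor family. It had 655, 631, 609, 634 and 661 TPM at 24 hr, against 157, 149, 178, 162 and 177 TPM at 4 hr. The replicates of each time varied little and the groups were far apart (log2 fold change 1.95, standard error 0.13, adjusted p = 4.5e-06). Uninjured astrocytes had 73.6 ± 16.4 TPM (SD, n = 5), below every sample at 4 hr. *Xrp1*, a bZIP gene of the DNA damage and translation stress response, was the most abundant of the list with 12586, 13318, 11984, 6237 and 6313 TPM at 24 hr, against 9521, 13079, 9309, 5008 and 6050 TPM at 4 hr. It did not pass the test (log2 fold change 0.23, limma adjusted p = 0.71).

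Lipid genes went both ways. Of 16 tested, 3 were called lower and 1 higher, and the median log2 fold change was 0.26. Beside these counts stand 1.47% and 0.371% of all genes. *NLaz* (FBgn0053126, chromosome 2L from 1359837 to 1361821), a lipid-binding lipocalin gene, had 71.5, 66.3, 81.9, 85.8 and 80.1 TPM at 24 hr, against 238, 282, 271, 223 and 251 TPM at 4 hr (log2 fold change -1.7, standard error 0.15, adjusted p = 3.1e-05). *mdy*, the diacylglycerol acyltransferase gene of lipid droplet synthesis, had 12.8, 9.88, 12, 9.82 and 10.5 TPM at 24 hr, against 38.5, 50.7, 32.2, 41.3 and 24.6 TPM at 4 hr (log2 fold change -1.65, standard error 0.23, adjusted p = 0.0012). *FASN1*, which encodes fatty acid synthase, had 5.58, 5.22, 4.56, 8.20 and 5.84 TPM at 24 hr, against 20.7, 21.8, 19.6, 17.8 and 19.9 TPM at 4 hr (log2 fold change -1.62, standard error 0.22, adjusted p = 0.0011). In none of these genes did the times overlap. *apolpp*, the apolipophorin gene of lipid transport, was higher, with 29.9, 18.9, 30.3, 28.7 and 41.6 TPM at 24 hr, against 12.8, 7.98, 11.7, 13.2 and 10.1 TPM at 4 hr (log2 fold change 1.32, standard error 0.25, adjusted p = 0.0087). It was called in 1 of 10 fits that left out 1 sample, with an adjusted p of up to 0.026 without 24 hr replicate 3. *apolpp* is also a marker of the fat body. Of the other 6 markers of that list only *Lsp1beta* was tested, and it had 0.23, 0, 1.12, 0 and 0.57 TPM at 24 hr, against 1.79, 3.03, 2.70, 2.75 and 3.91 TPM at 4 hr, lower in 5 of 5 samples but not called (log2 fold change -1.51, limma adjusted p = 0.014). The remaining 5, *Fbp1*, *Fbp2*, *Lsp2*, *Lsp1gamma* and *to*, stayed below 1 TPM in all 10 samples. The lipoprotein receptor gene *LpR2* had 27.4, 20.4, 11.4, 16.5 and 16.7 TPM at 24 hr, against 6.50, 9.90, 3.83, 2.79 and 4.27 TPM at 4 hr, higher in 5 of 5 samples, and missed the threshold (log2 fold change 1.64, limma adjusted p = 0.013).

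*Ldh* (FBgn0001258, chromosome 3L from 6259105 to 6262694), which encodes lactate dehydrogenase, had 7.36, 7.27, 8.49, 9.91 and 9.69 TPM at 24 hr, against 95.6, 70.9, 42.6, 42 and 37.7 TPM at 4 hr. It was the only one of the 12 tested glycolytic genes to be called (log2 fold change -2.54, standard error 0.28, adjusted p = 0.00019), and uninjured astrocytes had 6.50 ± 4.61 TPM (SD, n = 5). The other 11 had log2 fold changes from -0.3 for *Ald1* to 1.28 for *Hex-A*, the hexokinase gene, which had 518, 533, 255, 163 and 161 TPM at 24 hr, against 215, 157, 111, 81.6 and 69.4 TPM at 4 hr (limma adjusted p = 0.1). Of 22 tested glutathione transferase genes 1 was called. Both this count and the 1 of 12 in glycolysis stand beside 1.47% of all genes called lower. *GstE3* had 108, 128, 187, 194 and 217 TPM at 24 hr, against 259.8, 402, 417, 431 and 517 TPM at 4 hr (log2 fold change -1.29, standard error 0.24, adjusted p = 0.0078), while its neighbour *GstE6* had 89.3, 117, 138, 202 and 256 TPM at 24 hr, against 53.7, 79.8, 77.5, 70.5 and 105 TPM at 4 hr and a log2 fold change of 0.97 (limma adjusted p = 0.074). The call of *GstE3* held in 2 of 10 fits that left out 1 sample, with an adjusted p of up to 0.029 without 4 hr replicate 3.

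In the circadian clock 1 of 11 genes was called, beside 1.47% of all genes called lower. *cwo* (FBgn0259938, chromosome 3R from 10388258 to 10400752), whose product represses targets of the Clk and cyc activators, had 59, 53.3, 49, 34.9 and 24.9 TPM at 24 hr, against 273, 365, 256, 158 and 156 TPM at 4 hr. All samples at 24 hr lay below all at 4 hr (log2 fold change -2.41, standard error 0.29, adjusted p = 0.00045), and uninjured astrocytes had 23.7 ± 3.98 TPM (SD, n = 5). *cry*, the blue light receptor gene, had 218, 203, 184, 146 and 116 TPM at 24 hr, against 87.7, 103, 71.1, 35.2 and 56.1 TPM at 4 hr and was higher in 5 of 5 samples (log2 fold change 1.34, limma adjusted p = 0.016). *Clk* had 112, 118, 132, 56 and 85.8 TPM at 24 hr, against 67.4, 76.6, 67, 25.9 and 49.6 TPM at 4 hr (log2 fold change 0.84, limma adjusted p = 0.16). *per* had 111, 111, 23.1, 9.79 and 7.65 TPM at 24 hr, against 86, 47, 23.2, 3.95 and 5.86 TPM at 4 hr. Its replicates differed by more than 10 times within each time, replicates 1 and 2 being the highest, and its log2 fold change of 0.61 did not pass the test (limma adjusted p = 0.74). *tim*, *cyc*, *vri*, *Pdp1*, *dco*, *sgg* and *jet* lay between -0.2 for *Pdp1* and 0.72 for *dco*. The hour of dissection is not in the labels, so the time after injury and the time of day cannot be told apart.

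The remaining genes that the study takes from its RNA-seq data were as follows. *NijA*, which encodes the damage-induced membrane protein ninjurin A, had 8.96, 1.71, 7.13, 15.9 and 5.79 TPM at 24 hr, against 49.8, 42.1, 54.2, 28.7 and 29.6 TPM at 4 hr. The times did not overlap (log2 fold change -2.42, standard error 0.42, adjusted p = 0.0054), and the gene was called in 3 of 10 fits that left out 1 sample (adjusted p up to 0.023 without 4 hr replicate 3). *spict*, known as an inhibitor of BMP signalling at the synapse, had 11.9 to 17.2 TPM at 24 hr, against 25.7 to 38.5 TPM at 4 hr (log2 fold change -1.07, standard error 0.2, adjusted p = 0.0083) and was called in 1 of 10 such fits (adjusted p up to 0.029 without 4 hr replicate 3). *AdoR*, the adenosine receptor gene, had 114, 84.8, 57.2, 37.6 and 35.4 TPM at 24 hr, against 391, 495, 297, 115 and 153 TPM at 4 hr. It was lower in 5 of 5 samples but missed the threshold (log2 fold change -2.06, limma adjusted p = 0.015), and 60.1% of its exonic bases overlap an antisense RNA gene. It was called with size factors, quantile normalization, sample weights, the mitochondrial genome removed or its share as a covariate, within the samples of low mitochondrial share, and without 4 hr replicate 4. *Idgf4*, a growth factor gene, had 233, 169, 149, 64.6 and 94.6 TPM at 24 hr, against 175, 106, 90.3, 32.6 and 42.8 TPM at 4 hr, with overlapping groups (log2 fold change 0.78, limma adjusted p = 0.36). Of all 26 genes the study names, chosen on these samples and so no independent evidence of direction, 8 were called lower and 0 higher, beside 1.47% and 0.371% of all genes tested.

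Rises were fewer, and 13 of the 29 were in genes with only a CG symbol, beside 2440 of the 7810 genes tested. Another 6 were in noncoding RNA genes or pseudogenes, beside 420 of those tested. *CG13631* (FBgn0040600, chromosome 3R from 24769351 to 24770933) had 374, 466, 477, 494 and 573 TPM at 24 hr, against 76.9, 76, 87.3, 76.1 and 81.2 TPM at 4 hr. The 4 hr samples were close to each other and far below those at 24 hr (log2 fold change 2.56, standard error 0.15, adjusted p = 1.5e-06). Uninjured astrocytes had 647 ± 192 TPM (SD, n = 5), above the mean at 24 hr. *CG10513*, of a family of ecdysteroid kinase-like genes, had 172, 172, 165, 115 and 119 TPM at 24 hr, against 32.3, 54, 17.9, 21.4 and 23.4 TPM at 4 hr (log2 fold change 2.37, standard error 0.28, adjusted p = 0.00033). *CG31248* had 417, 416, 372, 323 and 376 TPM at 24 hr, against 118, 131, 99.3, 88.6 and 99.2 TPM at 4 hr (log2 fold change 1.83, standard error 0.16, adjusted p = 3.1e-05). In both genes the times were fully apart. The precursor of ribosomal RNA, *pre-rRNA:CR45845*, had 352, 355, 199, 373 and 341 TPM at 24 hr, against 46.3, 22.1, 59, 81.1 and 33.8 TPM at 4 hr, the largest rise of all (log2 fold change 2.81, standard error 0.32, adjusted p = 0.00023). It is a repeated locus, 71.9% of whose bases overlap other rRNA genes, so its share of reads depends on how copies were counted. *lncRNA:CR42756* had 8.0, 5.55, 8.72, 9.01 and 8.31 TPM at 24 hr, against 0.44, 0, 0.78, 1.66 and 1.27 TPM at 4 hr (log2 fold change 2.35, standard error 0.32, adjusted p = 0.001).

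The other large rises were mostly less firm. *CG3902*, an acyl-CoA dehydrogenase gene, had 19.3, 12.2, 13.8, 8.36 and 11.3 TPM at 24 hr, against 5.87, 1.69, 1.41, 1.54 and 2.94 TPM at 4 hr, and *CG7966*, a selenium-binding protein gene, had 17.7, 13.7, 14, 11.9 and 12.4 TPM at 24 hr, against 6.0, 3.05, 2.57, 0.09 and 1.29 TPM at 4 hr. Their log2 fold changes were 2.0 (adjusted p = 0.0055) and 2.3 (adjusted p = 0.0086), and each was called in 2 of 10 fits that left out 1 sample. *CG31100*, *CG15642*, *rdog* and *CG5539* had log2 fold changes of 2.3, 1.86, 1.72 and 1.64, and were called in 4, 5, 8 and 4 of these fits. *CG15642* and *CG5539* reached 1 TPM only at 24 hr, so their direction was fixed by the filter. The 5 fits without a 24 hr sample did not test these 2 genes, and *CG15642* was called in every fit that did. *Poc1*, a centriole gene, had 44, 38.1, 30.6, 24.6 and 35.9 TPM at 24 hr, against 12.6, 12.7, 6.07, 6.49 and 18.5 TPM at 4 hr and a log2 fold change of 1.62 (adjusted p = 0.0095), and was called in 1. *swif* and *cola* share all exons and carry the same values at both times, 2.08 to 3.26 TPM at 24 hr, against 0 to 0.83 TPM at 4 hr, so the rise of 1.57 (adjusted p = 0.0067) cannot be given to 1 of them. Both also reached 1 TPM only at 24 hr, so their direction was fixed by the filter.

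**Figure D5:**
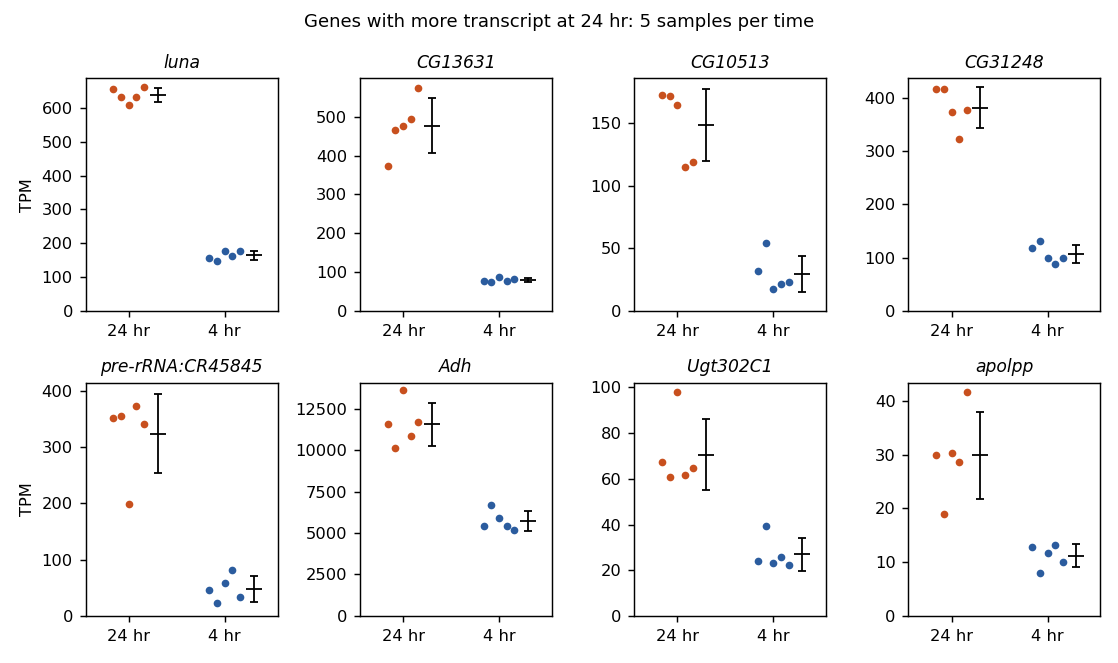
TPM (vertical axes, starting at 0) of 8 genes in the 5 samples at 24 hr (orange) and the 5 at 4 hr (blue), replicates 1 to 5 from left to right within a time, with the mean and SD in black. In all 8 the 24 hr points lie above the 4 hr points, with little spread for *luna*, and with replicate 3 low at 199 TPM among the 24 hr samples of *pre-rRNA:CR45845*.

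Of all genes 1.47% were called lower and 0.371% higher, so a list of 86 genes or fewer would hold few calls or none. Large gene groups of general cell function held no called gene. These were the 86 tested genes of the cytosolic ribosome (median log2 fold change 0.15), 64 of the mitochondrial ribosome (0.10), 31 of the proteasome (0.11), 60 nuclear genes of oxidative phosphorylation (-0.11), 12 genes of the mitochondrial genome (-0.15) and 19 of autophagy (0.28). In the cytosolic ribosome 14 genes were higher and 1 lower at an unadjusted p below 0.05, beside 968 higher and 604 lower of all 7810 genes. The 4 cortex glia genes had a median of 1.13 without a call. *zyd*, the ion exchanger gene of cortex glia, had 209, 181, 185, 133 and 148 TPM at 24 hr, against 131, 115, 103, 72.4 and 50.2 TPM at 4 hr, higher in 5 of 5 samples (log2 fold change 0.91, limma adjusted p = 0.063). Of 70 cuticle protein genes 3 were tested, and 1 of these, *Cpr56F*, was called lower, with 0 to 0.13 TPM at 24 hr, against 1.59 to 7.66 TPM at 4 hr (log2 fold change -1.85, standard error 0.35, adjusted p = 0.0092). *Cpr56F* could pass the filter only through the 4 hr samples, so its direction was fixed in advance. It was called in 0 of 10 fits that left out 1 sample, of which the 5 without a 4 hr sample did not test it. The count of 1 in 3 stands beside 1.47% of all genes called lower, and it rests on a gene admitted by its 4 hr level. The lysosomal genes *cathD*, *CtsL1* and *CtsB* (proteases) and *Lamp1* (a membrane protein) had log2 fold changes of 0.49, 0.49, 0.76 and 0.38, none of them called.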

How the data were processed

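RNA of 1600 sorted astrocytes per sample was amplified by Smart-seq2 and sequenced. The authors deposited 1 table of TPM, transcript levels per gene length as shares of a fixed total, with 1 column per sample. The study's methods name HISAT2, HTSeq and DESeq2 on dm6, and the submitters' processing notes also name STAR 2.6.0a, RSEM 1.3.1, Trimmomatic 0.39 and FastQC 0.11.7; which of these made the TPM, and whether strand was used in counting, is not given in the sources used here. TPM keeps no read depth, so the depth per sample is unknown and no counting interval is given. All 15 columns matched a sample by name, and 0 columns were left unused. Gene names and positions came from the Ensembl annotation of the release 6 assembly, which held 17398 of the 17509 identifiers.

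Values were used as log2(TPM + 1), so fold changes of low genes are understated. Genes with at least 1 TPM in at least 5 of the 10 injured samples were fitted with limma 3.58.1 (R 4.3.3; trended variance), with 2 groups and no covariate, and p-values were adjusted by Benjamini–Hochberg over all 7810 genes. The fit was checked on simulated data. The mitochondrial share and the number of genes above 0 TPM were set side by side with an exact permutation test, two-sided (SciPy 1.17.1), whose smallest p for 5 against 5 is 0.00794. Further steps ran in Python 3.11.15 with pandas 2.3.3, NumPy 2.4.6 and matplotlib 3.10.9. Alternatives were other normalizations, filters, pseudocounts and variance models, the mitochondrial share as a covariate, a replicate block, all 3 groups in 1 fit and leaving out each sample; the split at a mitochondrial share of 30% was chosen after the data were seen.

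The genes named are the 15 largest rises and 15 largest falls among called genes whose times did not overlap, the genes the study names from its RNA-seq, every called member of the gene lists, and every tested member of the circadian, JNK and AP-1, Pvr, Draper and astrocyte lists; other genes named are said to be so or stand as list members with a range. The comparison, the lists and the rule were chosen with earlier results of these data known. The study's methods describe the 5 samples of each condition as biological replicates. A search of promoters for transcription factor motifs was not run.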

Additional observations from a re-analysis of the deposited data

Results flagged for a closer look

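Of 162 sets of 5 samples examined over 79 genes and the sample measures, 10 held 1 sample far from the other 4 by Dixon's criterion at the 95% level, and chance alone gives such a gap in about 1 in 20 sets. Among the rises, *pre-rRNA:CR45845* was low in 24 hr replicate 3 (199.26 TPM), *lncRNA:CR42756* in 24 hr replicate 2 (5.55 TPM) and *CG5539* had 0.49 TPM in 4 hr replicate 2. Among the falls, *FarO* had 1.02 TPM in 24 hr replicate 1, against 0 to 0.12 TPM in the other 4 samples at that time. *CG14628* had 0.83 TPM in 24 hr replicate 2 and 2.57 TPM in 4 hr replicate 5. *Jra* was low in 24 hr replicate 5 (125.5 TPM) and *Arpc2* high in 4 hr replicate 5 (195.1 TPM). *alrm* was high in 24 hr replicate 3 (28297.81 TPM), and *nSyb* in 24 hr replicate 1 (59.17 TPM). Without 24 hr replicate 5 and 24 hr replicate 3 in turn, *Jra* and *pre-rRNA:CR45845* were still called.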

How the results depend on the processing

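Against 29 higher and 115 lower genes, the count of higher genes was 50 with the mitochondrial genome removed, 61 with sample weights, 119 at an adjusted p below 0.05, and 10 and 9 within the samples under and over 30% mitochondrial share. Lower genes were 177 with median-of-ratios size factors, 191 at an adjusted p below 0.05 and 22 over 30% mitochondrial share. With the mitochondrial share as a covariate 154 genes were higher and 220 lower. The fit with the replicate number as a block gave 233 higher and 204 lower genes (46.7% lower) and kept all 144 calls, so that the balance of rises and falls turned. Nothing in the labels pairs same-numbered samples, and they were not treated as pairs. The correlation of their deviations from the group means was 0.56, 0.42, -0.03, 0.38 and 0.43 for numbers 1 to 5, and not every sample correlated best with its own number. Quantile normalization gave 43 higher and 172 lower genes, all genes without a filter 21 and 90, and size factors 35 higher, a share of 83.5% lower. The cause of these shifts was not tested. No called gene changed sign in any of these fits. In all but 1 of these genes the times did not overlap, so leaving out samples could hardly turn a sign.

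Leaving out 1 sample gave 10 to 29 higher and 67 to 102 lower genes, a difference of -6.68 to 1.23 percentage points in the mitochondrial share of TPM and of -94.8 to 138 in genes with a TPM above 0. It turned the sign of uncalled log2 fold changes, which ranged from -0.44 to 0.04 for *Cad96Ca*, -0.3 to 0.06 for *Crk*, -0.06 to 0.26 for *Gs2*, -0.21 to 0.12 for *Mkk4*, -0.1 to 0.42 for *Pvf3*, -0.18 to 0.37 for *Tak1*, -0.08 to 0.13 for *bsk*, -0.07 to 0.03 for *drk*, -0.04 to 0.51 for *e*, -0.14 to 0.26 for *hep*, -0.19 to 0.56 for *nSyb*, -0.02 to 0.24 for *rl* and -0.17 to 0.43 for *wgn*. Other uncalled genes turned under a setting. With size factors *Gs2* had -0.04, *Src42A* -0.01, *Stat92E* -0.02, *bsk* -0.13, *hep* -0.07 and *rl* -0.04. *bsk* had -0.05 without the mitochondrial genome, and with its share as a covariate *Tak1* had -0.03, *hep* -0.05 and *wgn* -0.05. Over 30% mitochondrial share *Gat* had -0.04, *Src42A* -0.04, *bsk* -0.24, *rl* -0.14, *sgg* -0.01, *tim* 0.12 and *wun2* 0.1, and under it *Gs2* had -0.05, *Pvf3* -0.14, *drk* 0.11 and *hep* -0.02. After quantile normalization *Ced-12* and *Pvf3* had -0.01, *Src42A* -0.03 and *bsk* -0.07, and with sample weights *Pvf3* had -0.1 and *drk* 0.08. Over the named genes and settings, 2358 values kept their side of the threshold and direction, 230 fell below it, 28 passed it and 59 changed sign.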

Other observations

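The UDP-glycosyltransferase genes, which encode enzymes that attach sugars to small molecules, were looked at after their values were seen. Of 35 genes 13 were tested, 2 were called higher and 0 lower, 12 had a log2 fold change above 0, and in 6 all samples at 24 hr lay above all at 4 hr. Over all genes 0.371% were called higher, 3.53% lay higher without overlap, and the median log2 fold change was 0.18. Their summed level was 1338 to 1774 TPM at 24 hr, against 473 to 1025 TPM at 4 hr. *Ugt302C1* had 67.5, 60.9, 97.9, 61.8 and 64.8 TPM at 24 hr, against 24.1, 39.5, 23.2, 25.9 and 22.1 TPM at 4 hr (limma log2 fold change 1.36, adjusted p = 0.0028). *Ugt35E2* had 42.2, 48.4, 54.7, 56 and 57.3 TPM at 24 hr, against 28.7, 25.9, 24.4, 22.7 and 15.7 TPM at 4 hr (limma log2 fold change 1.12, adjusted p = 0.0067), and was called in 1 of 10 fits that left out 1 sample. *Adh*, the alcohol dehydrogenase gene, had 11560, 10149, 13608, 10857 and 11691 TPM at 24 hr, against 5435, 6675, 5910, 5411 and 5166 TPM at 4 hr (limma log2 fold change 1.02, adjusted p = 0.0041), and 93.9% of its exonic bases overlap *Adhr*. *Adh* was called in 2 of 10 fits that left out 1 sample.

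Some further called genes were picked by hand after their values were seen and stand for no group. *hry*, which encodes the repressor Hairy, had 289, 225, 286, 188 and 179 TPM at 24 hr, against 621, 933, 839, 617 and 659.7 TPM at 4 hr (limma log2 fold change -1.66, adjusted p = 0.00033). *dpn*, a repressor gene known from neural stem cells, had 70.2 to 177 TPM at 24 hr, against 242 to 385 TPM at 4 hr (log2 fold change -1.37, limma adjusted p = 0.0048), with 59.3% of its exonic bases in another gene. The call of *dpn* held in 5 of 10 fits that left out 1 sample. *Sox14* had 58.1 to 87.7 TPM at 24 hr, against 189 to 254 TPM at 4 hr and *sd*, the partner of Yorkie in Hippo signalling, 46.6 to 53 TPM at 24 hr, against 95.4 to 119.8 TPM at 4 hr, with log2 fold changes of -1.63 and -1.05 (limma adjusted p = 0.00012 and 0.0013). *Sxl*, the sex determination gene, had 99.9, 86.9, 112, 125 and 131 TPM at 24 hr, against 192, 261, 218, 239 and 214 TPM at 4 hr (limma log2 fold change -1.02, adjusted p = 0.0033). Its call was kept in 4 of 10 fits that left out 1 sample, and the male-enriched RNA *lncRNA:roX1* had 1738 to 2286 TPM at 24 hr, against 1535 to 2012 TPM at 4 hr. The other male-enriched RNA, *lncRNA:roX2*, had 29.9, 32.4, 55, 63.4 and 64.2 TPM at 24 hr, against 41.5, 66.6, 91.2, 131 and 91.5 TPM at 4 hr (log2 fold change -0.75, limma adjusted p = 0.22).

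*cora*, a septate junction gene, had 52.4, 38.4, 26.6, 27.3 and 30.5 TPM at 24 hr, against 159, 208, 134, 102 and 84.1 TPM at 4 hr (limma log2 fold change -1.92, adjusted p = 0.0014). *Ssk*, of the smooth septate junction, had 11.1 to 35.2 TPM at 24 hr, against 59.3 to 96.2 TPM at 4 hr (log2 fold change -1.9, limma adjusted p = 0.0019). *AnxB9*, an annexin gene, had 1124, 975, 1188, 691 and 888 TPM at 24 hr, against 3979, 3850, 3135, 2184 and 2619 TPM at 4 hr (limma log2 fold change -1.68, adjusted p = 0.00065). The signalling genes *Pak3* (a kinase), *RhoL* and *Rala* (small GTPases) had log2 fold changes of -2.0, -1.5 and -1.05. Of these, *Rala* was called in only 1 of 10 fits that left out 1 sample. The channel gene *OtopLa* had 38.2, 35.5, 37, 54.8 and 46.7 TPM at 24 hr, against 211, 269, 284, 226 and 242 TPM at 4 hr (limma log2 fold change -2.52, adjusted p = 5.7e-06). *TrpA1*, a channel gene, and *Kah* were listed at 0 in all 5 samples at 24 hr, against 1.16 to 7.23 TPM and 1.53 to 4.87 TPM at 4 hr. They could pass the filter only through the 4 hr samples, so their direction and lack of overlap were fixed in advance. They were called in 4 and 5 of 10 fits that left out 1 sample. The 5 fits without a 4 hr sample did not test them, so *Kah* was called in every fit that did.

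Called genes within 1000 bases of each other formed 11 pairs, and in all 11 both members moved in the same direction. Since 79.9% of the called genes were lower, most pairs of called genes would share a direction wherever they lay. *cola* with *swif* and *SuUR* with *CG45101* share all exons, so their agreement was fixed in advance. Of the 11 pairs 4 overlap. Of the 7 that lie apart 6 are on the same strand, beside 40.1% of 4096 pairs of tested genes that lie apart within this distance. Examples are *Orc1* beyond *Drat*, *CG4020* beyond *Act5C*, *lncRNA:CR44708* 508 bases beyond *CG7378*, and *CG11200* 105 bases beyond *CG13868*. Pairs on opposite strands included *r-l* and *dmrt93B*, 687 bases apart. Whether the reads of such pairs are from 1 transcript was not tested.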
